A study of Homo sapiens with 9 samples.

Results

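The mRNAs described here encode the nuclear transport machinery: the Ran GTPase and its partners, the importins, the exportins, the mRNA export receptor and the nucleoporins that build the nuclear pore. They were taken by gene symbol, with a pattern that lists these families, and 60 of the 42785 genes in the count tables matched it. By role they were 7 genes of the Ran system, 7 importin alpha genes, 12 genes of the importin beta family, 8 exportins, 3 mRNA export receptor genes and 23 nucleoporins. RNA was sequenced from SH-SY5Y cells, an established human neuroblastoma line, after pulldown with a mouse antibody to DCC (DCC-IP), after pulldown with a rabbit antibody to Nrp1 (Nrp1-IP), and from the lysate before pulldown (Input), with 3 libraries in each group. DCC is the receptor for the guidance cue Netrin-1 and Nrp1 is the receptor for Sema3A. All 3 groups came from cells grown in high-glucose DMEM with serum and lysed with cycloheximide, which arrests ribosomes, and the lysate was cleared of nuclei before the antibodies were added. The comparisons address which transport mRNAs came down with each receptor. The study's methods describe its experiments in general as done on independent biological replicates. The labels do not say so for the 3 libraries of a group, so p-values measure the spread between these libraries, which may be technical. Control pulldowns with an unrelated antibody were not analysed here, and binding to beads or antibody was not measured in these libraries.

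Transport between nucleus and cytoplasm runs on the Ran cycle. Importins bind cargo in the cytoplasm and release it in the nucleus when they meet Ran-GTP, exportins bind cargo together with Ran-GTP and release it outside, and NUTF2 carries Ran-GDP back into the nucleus. Importin alpha adaptors recognise the classical nuclear localisation signal and dock on importin beta 1 (KPNB1), and all carriers pass through a channel lined by nucleoporins. In neurons some of these mRNAs, that of importin beta 1 among them, are known to be transported into axons and translated there.

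Depth was similar in the 9 libraries, with 8838296 to 11055895 reads assigned to genes, so that 3 reads corresponded to 0.271 to 0.339 CPM, the count scaled to library size. Detection was less even. Genes with a count ran from 6652 in DCC-IP replicate 1 to 12240 in Nrp1-IP replicate 3. In each group replicate 1 had the fewest such genes and replicate 3 the most. Transport genes with more than 3 counts ran from 33 to 50 in a library. MAP1B alone took 40.3% to 52.1% of the gene counts of the DCC-IP libraries and 1.58% to 2.44% of those of the other libraries, and it bears on every share and scaling below. Of 10 markers of SH-SY5Y, 9 had a count in at least 1 library and TH was at 0 in all, while 9 of 12 markers of other cell types were at 0 in all 9 libraries. Summed over each list, the SH-SY5Y markers ranged from 1244 to 4015 CPM in DCC-IP, from 1016 to 1355 in Nrp1-IP and from 273 to 469 in Input, mostly through ISL1. The median SH-SY5Y marker was lower than in Input, at a log2 fold change of -0.95 in DCC-IP (4 of 6 tested below 0) and -0.92 in Nrp1-IP (5 of 6 below 0). The markers of other cell types stayed between 0.833 and 5.02 CPM in every library. DCC mRNA was at 0 in all 9 libraries, and NRP1 mRNA had 198, 320 and 234 counts in Input, 0, 26 and 23 in DCC-IP, and 55, 83 and 36 in Nrp1-IP.

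Of the 60 transport genes, 29 had more than 3 counts in all 9 libraries, 47 had enough reads to be tested in at least 1 comparison, and 41 were tested in all 3. A gene was called when its p from edgeR's quasi-likelihood test, adjusted over all genes tested after Benjamini and Hochberg, fell under 0.05, and 8 transport genes were called in at least 1 comparison. Unless another setting is named, called refers to this test on the 6 libraries of a comparison, the main fit. Between the receptors, NUTF2 and NUP43 were higher with Nrp1, 2 of 43 transport genes tested, where 3.65% of all 6439 genes tested were called (2.56% higher, 1.09% lower). None was called lower with Nrp1. At an unadjusted edgeR p under 0.05, 3 were higher and 5 lower, where 7.87% of all genes were higher and 9.49% lower. DESeq2 called 2 higher and 2 lower (KPNB1 and RCC1) of the 39 to which it gave an adjusted p, where it called 7.65% of all such genes higher and 6.14% lower. In DCC-IP over Input, 5 of 45 were called, with NUP153 and NUP188 higher and NUTF2, NUP43 and KPNA6 lower, where 4.98% of 6223 genes were called (1.46% higher, 3.52% lower). Deviations from the group mean correlated at 0.117, 0.187 and 0.421 for same-numbered libraries of these groups. The link was strongest at replicate 3, and DCC-IP replicate 2 with Input replicate 1, of different numbers, reached 0.136. With the replicate number as a block the call covered 6 higher (KPNB1, NUP153, NUP188, NUP85, RANBP9 and XPO5) and the same 3 lower. Under the block 3.82% of all genes were called higher and 7.67% lower. In Nrp1-IP over Input, 4 of 43 were called, all higher (IPO5, NUP188, RANBP9 and XPO6), where 4.97% of 6501 genes were called (1.94% higher, 3.03% lower). There, 13 transport genes were higher and 6 lower at an unadjusted edgeR p under 0.05, where 11.5% of all genes were higher and 10.1% lower. DESeq2 called 9 higher and 5 lower of the 41 to which it gave an adjusted p, where it called 6.46% of all such genes higher and 10.2% lower.

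The median transport gene stood above the median of all genes tested in each pulldown relative to Input, and slightly below it between the receptors. In DCC-IP over Input the median log2 fold change was 0.96 over the 45 transport genes and 0.16 over all genes, and 30 were above 0, where 52.9% of all genes were. Over the 43 tested in Nrp1-IP over Input the medians were 0.58 and 0.06, and 28 were above 0, where 51.8% of all genes were. Between the receptors the medians were -0.39 and -0.27, and 14 of 43 were above 0, where 42.6% of all genes were. The libraries of the 2 groups did not overlap in TMM-scaled CPM for 20 transport genes in DCC-IP over Input, 13 higher and 7 lower, where 33.4% of all genes did not overlap (15.2% higher, 18.2% lower). In Nrp1-IP over Input they did not overlap for 25, 17 higher and 8 lower, where 31.5% of all genes did not (17.7% higher, 13.8% lower). Between the receptors they did not overlap for 9, 3 higher and 6 lower, where 26.6% of all genes did not (15.6% higher, 10.9% lower). Both comparisons with Input share its 3 libraries, so they are not separate evidence.

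By reads, 3 genes made up most of the transport class. NUTF2, NUP43 and KPNA6 together held 84.8% ± 6.80 (SD, n = 3) of the class's counts in Input, 86.3% ± 1.65 with Nrp1 and 52.9% ± 0.937 with DCC. The 60 genes together took 0.825% ± 0.0368 of all gene counts in Input, 1.16% ± 0.0228 with Nrp1 and 0.430% ± 0.133 with DCC, with no overlap between any 2 groups. Leaving MAP1B out of the total, the share in DCC-IP was 0.806% ± 0.151, which overlapped Input (0.843% ± 0.0393) and not Nrp1-IP (1.18% ± 0.0212). Without the 3 genes, the other 57 summed to 1485 ± 455 TMM-scaled CPM in Input, 1398 ± 87.8 with Nrp1 and 1845 ± 330 with DCC, and all 3 groups overlapped. With MAP1B left out of the total, the 57 took 0.380% ± 0.0683 of gene counts with DCC. They took 0.162% ± 0.0198 with Nrp1 and 0.126% ± 0.0508 in Input. On that share DCC-IP lay above both other groups without overlap, so the result depends on the scaling. These are shares of reads, which follow transcript length and amplification as well as the number of mRNAs.

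**Figure D1:**
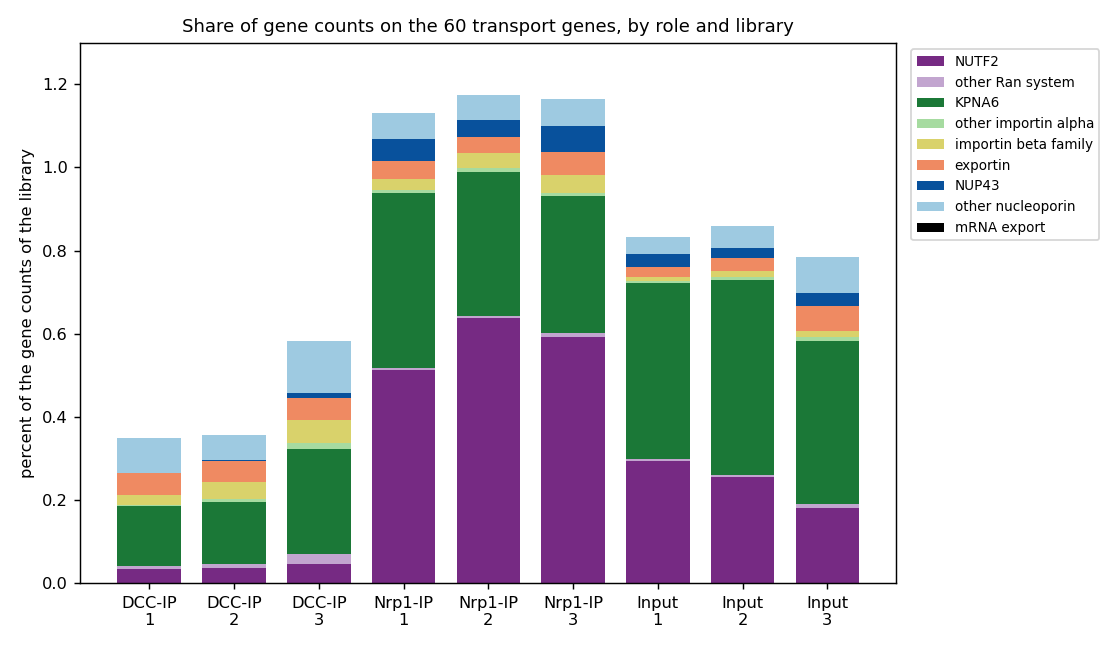
Percent of each library's gene counts (y axis, linear from 0) on the 60 transport genes in the 9 libraries (x axis), stacked by role, with NUTF2, KPNA6 and NUP43 shown apart from the rest of their roles. The bars of the DCC-IP libraries reach 0.349% to 0.584%, those of Nrp1-IP 1.13% to 1.17% and those of Input 0.786% to 0.858%, and NUTF2 and KPNA6 fill most of the Nrp1-IP and Input bars.

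NUTF2, the carrier that returns Ran-GDP to the nucleus, differed most clearly between the receptors. It had 31481, 25788 and 16062 counts in Input, 49871, 64058 and 64736 in the libraries precipitated with Nrp1, and 3919, 4061 and 4801 in those precipitated with DCC. The 3 DCC-IP libraries lay far below the other 6, and every Nrp1-IP library lay above every Input library. Scaled by the trimmed mean of M-values (TMM), the level was 3058 ± 1020 CPM in Input, 5150 ± 664 with Nrp1 and 367 ± 66.1 with DCC (mean ± SD, n = 3). It was 12.7-fold higher in Nrp1-IP than in DCC-IP (log2 fold change 3.67, SE 0.30, edgeR adjusted p = 0.000925) and 7.70-fold lower in DCC-IP than in Input (log2 fold change -2.95, SE 0.35, edgeR adjusted p = 0.00520). The first difference was called in each of 6 fits that left out 1 library. The second was lost without DCC-IP replicate 1 (edgeR adjusted p = 0.0766) and without DCC-IP replicate 2 (edgeR adjusted p = 0.112), where at most 1 gene of the whole table was called. Between Nrp1-IP and Input it was not called (log2 fold change 0.83, SE 0.30, edgeR adjusted p = 0.150). RefSeq lists 6 pseudogenes named after NUTF2, so reads that align to both may have been assigned to neither or to the wrong copy, and the values for NUTF2 are uncertain to that extent.

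The rest of the Ran system did not share that pattern. RANBP9, a scaffold protein named for binding Ran that is better known as part of an E3 ubiquitin ligase complex, had 49, 75 and 90 counts in Input, against 436, 546 and 880 with DCC and 351, 402 and 455 with Nrp1. All 6 pulldown libraries stood above Input. It was 4.12-fold higher in Nrp1-IP than in Input (log2 fold change 2.04, SE 0.43, edgeR adjusted p = 0.0402), and DCC-IP over Input gave 2.68 on the log2 scale (SE 0.65, edgeR adjusted p = 0.0523). The Nrp1-IP call was lost without any 1 of the Nrp1-IP libraries and without Input replicate 1 or 2 (edgeR adjusted p from 0.102 to 0.211), and with all 9 libraries in 1 fit (edgeR adjusted p = 0.0952). With the replicate number as a block, the DCC-IP difference was called (log2 fold change 2.68, edgeR adjusted p = 0.0250). RCC1, the chromatin-bound exchange factor that loads Ran with GTP, had 307, 299 and 315 counts in Input, 152, 105 and 169 with Nrp1 and 271, 374 and 553 with DCC. Nrp1-IP was below both other groups without overlap, with log2 fold changes of -1.58 over Input (SE 0.40, edgeR adjusted p = 0.0658) and -1.59 over DCC-IP (SE 0.58, edgeR adjusted p = 0.188). DESeq2 called both differences of RCC1.

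RAN itself, the GTPase at the centre of the cycle, varied more within groups than between them. Its counts were 7, 12 and 311 in Input, 18, 12 and 359 with Nrp1 and 16, 37 and 1058 with DCC. In each group replicate 3 was far above the other 2 libraries, and no comparison of groups came near the threshold (edgeR adjusted p from 0.723 to 0.899). RANGAP1, which triggers GTP hydrolysis by Ran outside the nucleus, had 0 to 62 counts in any library, again with its highest value in replicate 3 of every group. RANBP1 and RANBP3, a partner of RANGAP1 and a cofactor of XPO1, had at most 22 counts and were not tested. RefSeq lists 9 pseudogenes named after RAN, so its counts are uncertain in the same way as those of NUTF2. In all, 16 of the 60 genes have such pseudogenes, among them NUP50 (4), KPNA2 (3), XPOT (3), IPO5 (1) and KPNB1 (1), and their counts carry the same uncertainty.

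Among the importin alpha adaptors KPNA6 held most of the reads in every library. It had 45273, 47231 and 34607 counts in Input, against 15833, 16642 and 26283 with DCC and 40701, 35002 and 35991 with Nrp1. After TMM scaling the groups did not overlap, at 5286 ± 806 CPM in Input, 3249 ± 551 with Nrp1 and 1650 ± 274 with DCC. DCC-IP was 2.93-fold below Input (log2 fold change -1.55, SE 0.29, edgeR adjusted p = 0.0235), a call that among the fits leaving out 1 library held without Input replicate 3 and was lost in the other 5 (edgeR adjusted p from 0.105 to 0.284). It was also lost with MAP1B left out (edgeR adjusted p = 0.0880), with library size only (0.0529) and with no filter (0.142). Neither Nrp1-IP over DCC-IP (log2 fold change 0.84, SE 0.27, edgeR adjusted p = 0.139) nor Nrp1-IP over Input (log2 fold change -0.61, SE 0.24, edgeR adjusted p = 0.190) passed.

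The other importin alpha genes had fewer reads and none was called in the main fit. KPNA1 had 366, 489 and 425 counts in Input, 403, 374 and 441 with Nrp1 and 260, 565 and 584 with DCC, with log2 fold changes between -0.51 and -0.30 in the 3 comparisons. KPNA2, whose product also carries the classical signal in dividing cells, had 41, 56 and 57 counts in Input, against 43, 232 and 357 with DCC and 167, 299 and 190 with Nrp1. Every Nrp1-IP library of KPNA2 was above every Input library (log2 fold change 1.66, SE 0.48, edgeR adjusted p = 0.0934). That difference was called by DESeq2, with 10 counts in every library and with library size only. KPNA3 had 2 to 60 counts in a library. KPNA4 had 68, 18 and 398 counts in Input, 17, 64 and 205 with Nrp1 and 3, 28 and 361 with DCC, with replicate 3 highest in each group. KPNA5 had at most 6 counts, and KPNA7, known from oocytes and early embryos, was at 0 in all 9 libraries. The median log2 fold change of the 5 importin alpha genes tested was 0.06 in Nrp1-IP over DCC-IP, -0.30 in DCC-IP over Input and -0.51 in Nrp1-IP over Input, and the second moved to 0.00 when libraries were scaled by library size alone.

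KPNB1, importin beta 1, had its highest values with DCC. It had 206, 170 and 478 counts in Input, against 1285, 1185 and 3474 with DCC and 339, 679 and 778 with Nrp1. All DCC-IP libraries were above all libraries of the other groups, and Nrp1-IP overlapped Input. The log2 fold change was -1.78 in Nrp1-IP over DCC-IP (SE 0.49, edgeR adjusted p = 0.0891) and 2.33 in DCC-IP over Input (SE 0.65, edgeR adjusted p = 0.0758), so neither passed. With the replicate number as a block DCC-IP over Input was called (log2 fold change 2.35, edgeR adjusted p = 0.00619). Nrp1-IP over DCC-IP was called lower under the block and by DESeq2. Neither comparison was called in any fit that left out 1 library. In Nrp1-IP over Input the log2 fold change was 0.55 (SE 0.55, edgeR adjusted p = 0.635).

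IPO5, an importin known for carrying ribosomal proteins and histones, was the called member of the importin beta family. Its counts were 226, 475 and 144 in Input, 1221, 1786 and 2409 with Nrp1 and 568, 1880 and 884 with DCC. Each pulldown library was above each Input library. It was 4.84-fold higher in Nrp1-IP than in Input (log2 fold change 2.27, SE 0.45, edgeR adjusted p = 0.0328), and DCC-IP over Input gave 1.56 (SE 0.69, edgeR adjusted p = 0.227). The Nrp1-IP call was lost without any 1 of the Nrp1-IP libraries and without Input replicate 1 (edgeR adjusted p from 0.130 to 0.182), and with all 9 libraries in 1 fit (edgeR adjusted p = 0.0967). The difference between the receptors was small against its error (log2 fold change 0.52, SE 0.52, edgeR adjusted p = 0.717).

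The remaining importin beta family genes were not called in the main fit. TNPO1 and TNPO2, the transportins that carry hnRNP proteins, had log2 fold changes between -0.33 and 0.58 in the 3 comparisons, with standard errors of 0.41 to 0.71. TNPO3, a carrier of splicing factors, and IPO9 had higher values in every Nrp1-IP library than in every Input library, with log2 fold changes of 1.91 (SE 1.03, edgeR adjusted p = 0.334) for TNPO3 and 1.31 (SE 0.41, edgeR adjusted p = 0.114) for IPO9. IPO7 had 44, 92 and 65 counts in Input, 17, 24 and 6 with Nrp1 and 3, 101 and 38 with DCC, which left Nrp1-IP below Input without overlap (log2 fold change -2.44, SE 0.75, edgeR adjusted p = 0.106). DESeq2 and the exact test called this difference of IPO7. IPO11 ranged from 1 to 107 counts. IPO4, IPO8, IPO13 and RANBP6 had counts in at most 2 libraries and were not tested. Over the 8 genes tested, the family's median log2 fold change was 0.66 in DCC-IP over Input and 0.49 in Nrp1-IP over Input. Summed over the 12 genes, the family reached 151 ± 35.6 TMM-scaled CPM in Input, 317 ± 58.2 with Nrp1 and 350 ± 45.8 with DCC, with both pulldowns above Input in every library.

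The exportins had the highest median of the role groups with more than 1 gene tested in each pulldown over Input, 1.61 in DCC-IP and 1.36 in Nrp1-IP over the 7 tested, and no exportin separated the receptors without overlap. XPO6, the exportin of actin and profilin, had 39, 58 and 20 counts in Input, against 214, 400 and 129 with DCC and 530, 339 and 476 with Nrp1. Every pulldown library was above every Input library. The gene was 8.72-fold higher in Nrp1-IP than in Input (log2 fold change 3.12, SE 0.50, edgeR adjusted p = 0.0194), with 2.27 in DCC-IP over Input (SE 0.87, edgeR adjusted p = 0.167). Its Nrp1-IP call was lost without the same 4 libraries as that of IPO5 (edgeR adjusted p from 0.0792 to 0.127) and with all 9 libraries in 1 fit (edgeR adjusted p = 0.0623). XPO5, which exports microRNA precursors, had 121, 404 and 127 counts in Input, 807, 1385 and 1638 with Nrp1 and 1082, 2010 and 1006 with DCC. Its log2 fold changes over Input were 2.25 in DCC-IP (SE 0.68, edgeR adjusted p = 0.0928) and 2.17 in Nrp1-IP (SE 0.50, edgeR adjusted p = 0.0510). With the replicate number as a block, XPO5 was called in DCC-IP over Input (log2 fold change 2.40, edgeR adjusted p = 0.0124).

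XPO1, the general export receptor for proteins with leucine-rich signals, had 12, 63 and 40 counts in Input, against 166, 272 and 131 with DCC and 137, 62 and 196 with Nrp1. Its DCC-IP libraries lay above Input and its Nrp1-IP libraries overlapped Input, with log2 fold changes of 1.91 (SE 0.93, edgeR adjusted p = 0.272) and 1.36 (SE 0.68, edgeR adjusted p = 0.301). CSE1L, which returns importin alpha to the cytoplasm, had 1360, 1485 and 783 counts in Input, 789, 789 and 943 with Nrp1 and 799, 709 and 583 with DCC. On the TMM scale both pulldowns of CSE1L were below Input without overlap, at log2 fold changes of -1.20 in DCC-IP (SE 0.49, edgeR adjusted p = 0.202) and -0.96 in Nrp1-IP (SE 0.33, edgeR adjusted p = 0.145). XPOT, the tRNA exportin, had 958, 822 and 4103 counts in Input, against 2086, 871 and 3472 with DCC and 1145, 801 and 2022 with Nrp1, with replicate 2 lowest and replicate 3 highest in each group. XPO7 had all its Nrp1-IP libraries above Input (log2 fold change 1.06, SE 0.43, edgeR adjusted p = 0.206), its relative RANBP17 had 0 to 101 counts in a library, and XPO4 had counts in 1 library and was not tested. Of the mRNA export genes, NXF1, the main receptor for bulk mRNA export, had 0 to 97 counts in a library and its partner genes NXT1 and NXT2 had 0 to 35, and none was called.

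**Figure D2:**
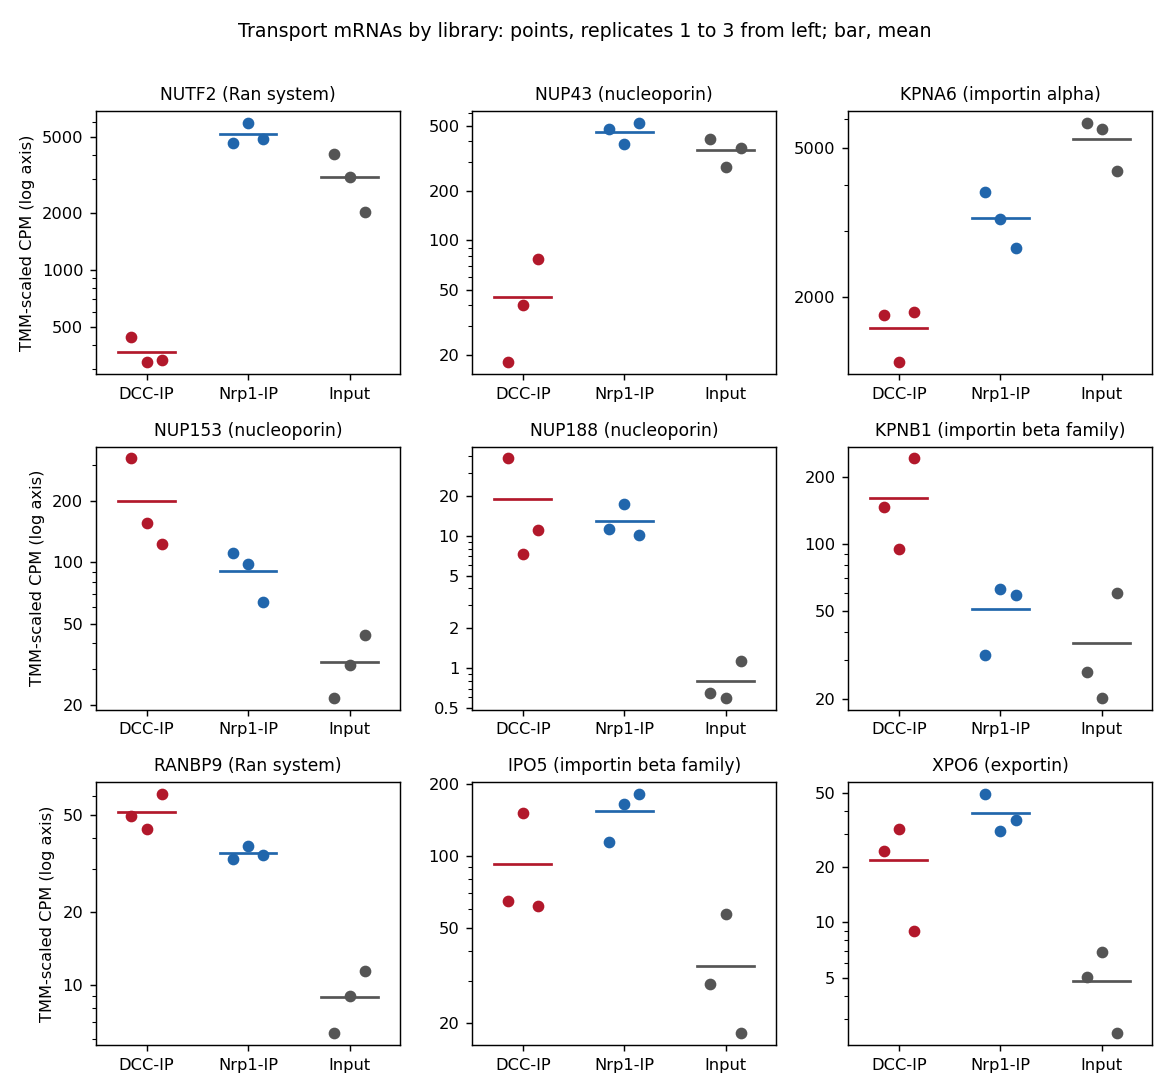
TMM-scaled CPM (log axis) of the 8 called transport genes and KPNB1 in each library, with replicates 1 to 3 from left to right in each group and a bar at the group mean. NUTF2 and NUP43 are low in DCC-IP alone (367 and 44.8 CPM on average), KPNB1 is high in DCC-IP alone (160.5 CPM), and NUP153, NUP188, RANBP9, IPO5 and XPO6 lie above Input in all 6 pulldown libraries.

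Among the nucleoporins, NUP43 followed NUTF2 and stood apart from the other genes of the symbol pattern assigned to its subcomplex. NUP43 is a small beta-propeller protein of the Y-complex, the scaffold that also holds NUP85, NUP133, NUP160, NUP107 and NUP37. It had 3222, 2347 and 2891 counts in Input, 5075, 4157 and 6867 with Nrp1 and 159, 499 and 1102 with DCC. The DCC-IP libraries were below all others, and Nrp1-IP overlapped Input on the TMM scale (458 ± 68.3 and 354 ± 68.2 CPM, against 44.8 ± 29.5 in DCC-IP). It was 9.08-fold higher in Nrp1-IP than in DCC-IP (log2 fold change 3.18, SE 0.56, edgeR adjusted p = 0.0150), a call lost only without Nrp1-IP replicate 1 among the 6 fits that left out 1 library (edgeR adjusted p = 0.0644). In DCC-IP over Input the log2 fold change was -2.75 (SE 0.66), with an edgeR adjusted p of 0.04997 that lay at the threshold and -3.04 with an edgeR adjusted p of 0.0144 under the replicate block, and without the block it held in 1 of 6 fits that left out 1 library, that without DCC-IP replicate 3 (otherwise edgeR adjusted p from 0.0653 to 0.192). It was also lost with MAP1B left out (edgeR adjusted p = 0.0626) and with library size only (0.0921). Nrp1-IP over Input gave 0.44 (SE 0.31, edgeR adjusted p = 0.470).

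NUP85 and NUP133 had their highest group means with DCC, and neither was called in the main fit. In DCC-IP over Input NUP85 was called higher by DESeq2, with 10 counts in every library and with all 9 libraries in 1 fit. NUP85 had 45, 44 and 107 counts in Input, against 452, 246 and 1049 with DCC and 225, 170 and 221 with Nrp1. Each DCC-IP library was above each Input library (log2 fold change 2.69, SE 0.80, edgeR adjusted p = 0.0918), a difference that the replicate block called (log2 fold change 2.61, edgeR adjusted p = 0.0348). NUP133 had 9, 28 and 25 counts in Input, 31, 73 and 50 with Nrp1 and 108, 127 and 132 with DCC, with log2 fold changes of 2.14 in DCC-IP over Input (SE 0.96, edgeR adjusted p = 0.236) and -1.38 in Nrp1-IP over DCC-IP (SE 0.82, edgeR adjusted p = 0.448). NUP160, NUP107 and NUP37 had at most 37 counts in a library. NUP85 and NUP133 were named after their values were seen, for the contrast with NUP43, and NUP43 is the 1 of the 4 Y-complex genes tested between the receptors whose log2 fold change was above 0.

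In the inner ring, the scaffold around the central channel, NUP188 was called in both pulldowns. Its counts were 5, 5 and 9 in Input, 121, 190 and 135 with Nrp1 and 339, 91 and 159 with DCC. All 6 pulldown libraries were far above Input, and the pulldowns overlapped each other. The log2 fold change was 4.55 in DCC-IP over Input (SE 1.06, edgeR adjusted p = 0.0462) and 4.08 in Nrp1-IP over Input (SE 0.63, edgeR adjusted p = 0.0175), both against Input libraries with fewer than 10 counts. The DCC-IP call was kept in 0 of 6 fits that left out 1 library (edgeR adjusted p from 0.0526 to 0.216) and the Nrp1-IP call in 1 of 6, that without Input replicate 3 (otherwise 0.0518 to 0.145), with the sign unchanged in all. The DCC-IP call was also lost with RLE size factors (edgeR adjusted p = 0.0586) and with MAP1B left out (0.0627). NUP155, also of the inner ring, had 1659, 2009 and 1760 counts in Input, against 1303, 626 and 885 with DCC and 1380, 1591 and 1840 with Nrp1. On the TMM scale both pulldowns of NUP155 were below Input without overlap, at log2 fold changes of -1.34 (SE 0.48, edgeR adjusted p = 0.137) in DCC-IP and -0.62 (SE 0.27, edgeR adjusted p = 0.237) in Nrp1-IP. NUP35, which joins the inner ring to the membrane, had 144, 77 and 43 counts in Input, 13, 11 and 36 with Nrp1 and 0, 16 and 59 with DCC, with log2 fold changes of -2.32 (SE 1.53, edgeR adjusted p = 0.439) and -2.67 (SE 0.73, edgeR adjusted p = 0.0803) over Input. Other settings, DESeq2 and the exact test among them, called NUP35 lower in Nrp1-IP over Input. NUP93 and NUP205, the other inner ring genes, had at most 75 counts.

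The nuclear basket, the filaments on the nucleoplasmic face, held one called gene. NUP153 had 168, 262 and 349 counts in Input, against 2849, 1942 and 1773 with DCC and 1182, 1060 and 851 with Nrp1. The 3 groups did not overlap, with DCC-IP highest and Input lowest. It was 6.40-fold higher in DCC-IP than in Input (log2 fold change 2.68, SE 0.54, edgeR adjusted p = 0.0289). That call held without DCC-IP replicate 3 or Input replicate 3, was lost without any 1 of the other 4 libraries (edgeR adjusted p from 0.112 to 0.178) and was lost with RLE size factors (edgeR adjusted p = 0.0508) and with MAP1B left out (0.0576). In Nrp1-IP over Input the log2 fold change of NUP153 was 1.56 (SE 0.43, edgeR adjusted p = 0.0815), and in Nrp1-IP over DCC-IP it was -1.26 (SE 0.46, edgeR adjusted p = 0.187). NUP50, its basket partner, had 2046, 2155 and 5043 counts in Input, 1802, 1706 and 2533 with Nrp1 and 3280, 1356 and 7535 with DCC, with Nrp1-IP below Input without overlap (log2 fold change -1.12, SE 0.45, edgeR adjusted p = 0.196). TPR, the long coiled coil of the basket, had at most 17 counts in a library.

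On the cytoplasmic side, NUP214 and RANBP2 form the filaments facing the cytoplasm. Both had higher values in DCC-IP than in Input without passing the threshold in the main fit. DESeq2 called both higher in that comparison. NUP214 was also called by the exact test and with all 9 libraries in 1 fit, and RANBP2 with 10 counts in every library. NUP214 had 2, 23 and 23 counts in Input, against 322, 340 and 134 with DCC and 303, 127 and 185 with Nrp1. All 6 pulldown libraries were above Input, with log2 fold changes of 3.66 in DCC-IP (SE 1.10, edgeR adjusted p = 0.0933) and 3.29 in Nrp1-IP (SE 0.87, edgeR adjusted p = 0.0717). RANBP2 had 36, 39 and 12 counts in Input, 44, 136 and 70 with Nrp1 and 214, 347 and 207 with DCC. Its DCC-IP libraries lay above both other groups, with log2 fold changes of 2.73 over Input (SE 0.86, edgeR adjusted p = 0.103) and -1.76 in Nrp1-IP over DCC-IP (SE 0.76, edgeR adjusted p = 0.267). The near-identical RGPD copies of RANBP2 and POM121C, a copy of POM121, had at most 23 counts in any library, though shared reads may have been left out of all copies. NUP88, their partner on that face, had 3 to 125 counts in a library and log2 fold changes of 0.53 and 0.41 over Input. POM121, a membrane anchor of the pore, had 5, 35 and 27 counts in Input, against 5, 230 and 93 with DCC and 53, 112 and 74 with Nrp1, and no comparison of it passed. NUP210, the large membrane glycoprotein of the pore, and its paralog NUP210L had at most 69 counts.

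The channel nucleoporins, whose FG repeats line the path that carriers take, were not called in the main fit. NUP98 had 136, 161 and 115 counts in Input, 433, 344 and 518 with Nrp1 and 246, 408 and 379 with DCC, and every pulldown library was above every Input library on the TMM scale. Its log2 fold changes over Input were 0.90 in DCC-IP (SE 0.64, edgeR adjusted p = 0.476) and 1.21 in Nrp1-IP (SE 0.37, edgeR adjusted p = 0.106). The Nrp1-IP difference of NUP98 was called by DESeq2 and with library size only. NUP54 had 73, 138 and 64 counts in Input, 398, 277 and 290 with Nrp1 and 30, 480 and 305 with DCC, so that DCC-IP alone overlapped Input. Its partner NUP62 had 3 to 57 counts in a library and log2 fold changes of -0.52 and -0.80 over Input in DCC-IP and Nrp1-IP. Over the 23 nucleoporins, the median log2 fold change was 0.96 in DCC-IP over Input (19 tested), 0.90 in Nrp1-IP over Input (17 tested) and -0.58 between the receptors (18 tested). Leaving out NUP43, the nucleoporins summed to 718 ± 220 TMM-scaled CPM in Input, 550 ± 23.6 with Nrp1 and 822 ± 266 with DCC, and the groups overlapped. With MAP1B left out of the total, they took 0.166% ± 0.0435 of gene counts with DCC. Their share was 0.0635% ± 0.00270 with Nrp1 and 0.0611% ± 0.0245 in Input, and DCC-IP did not overlap the other groups.

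**Figure D3:**
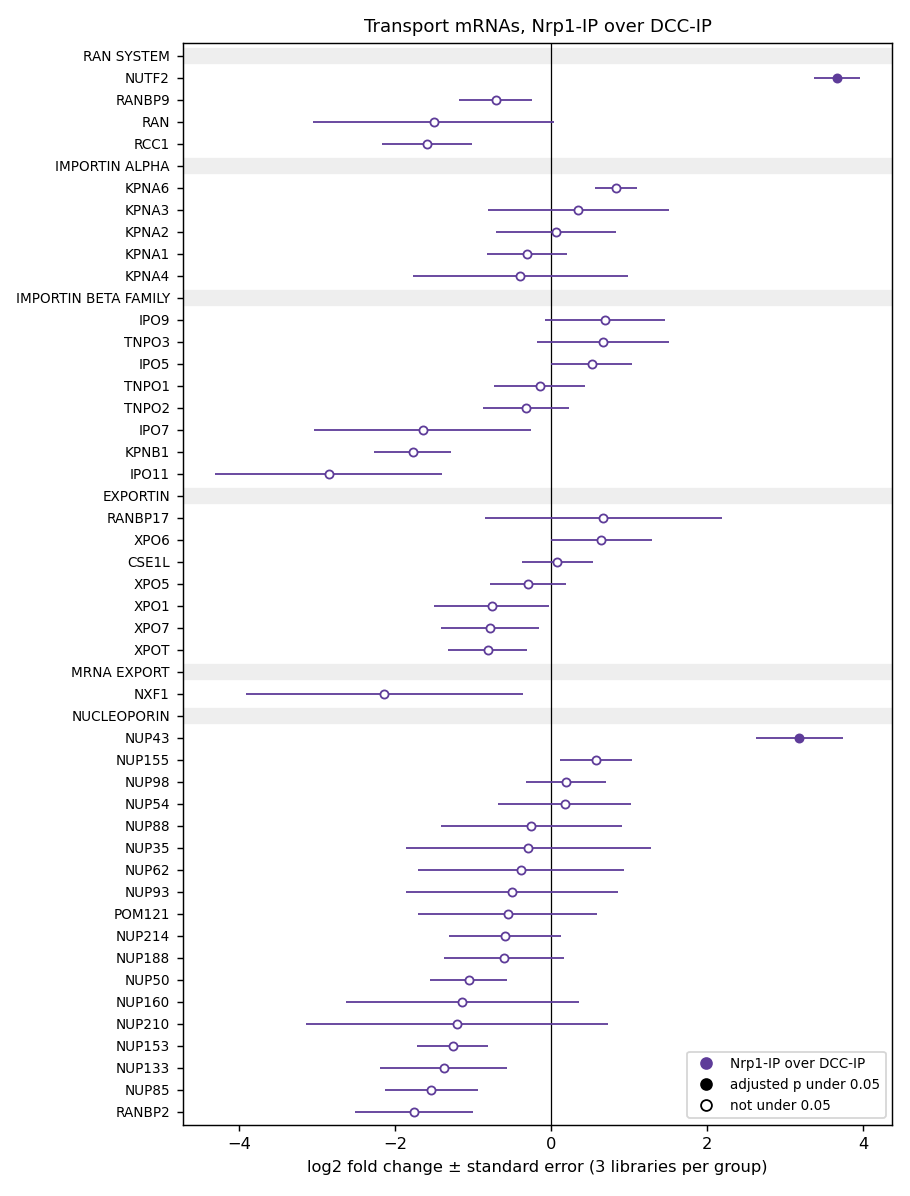
Log2 fold change in Nrp1-IP over DCC-IP (x axis, point with its standard error, 3 libraries per group) for the 43 transport genes tested, grouped by role and filled where the edgeR adjusted p was under 0.05. NUTF2 (3.67) and NUP43 (3.18) are filled and lie to the right of all other points, and 29 of the 43 points lie below 0.

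**Figure D4:**
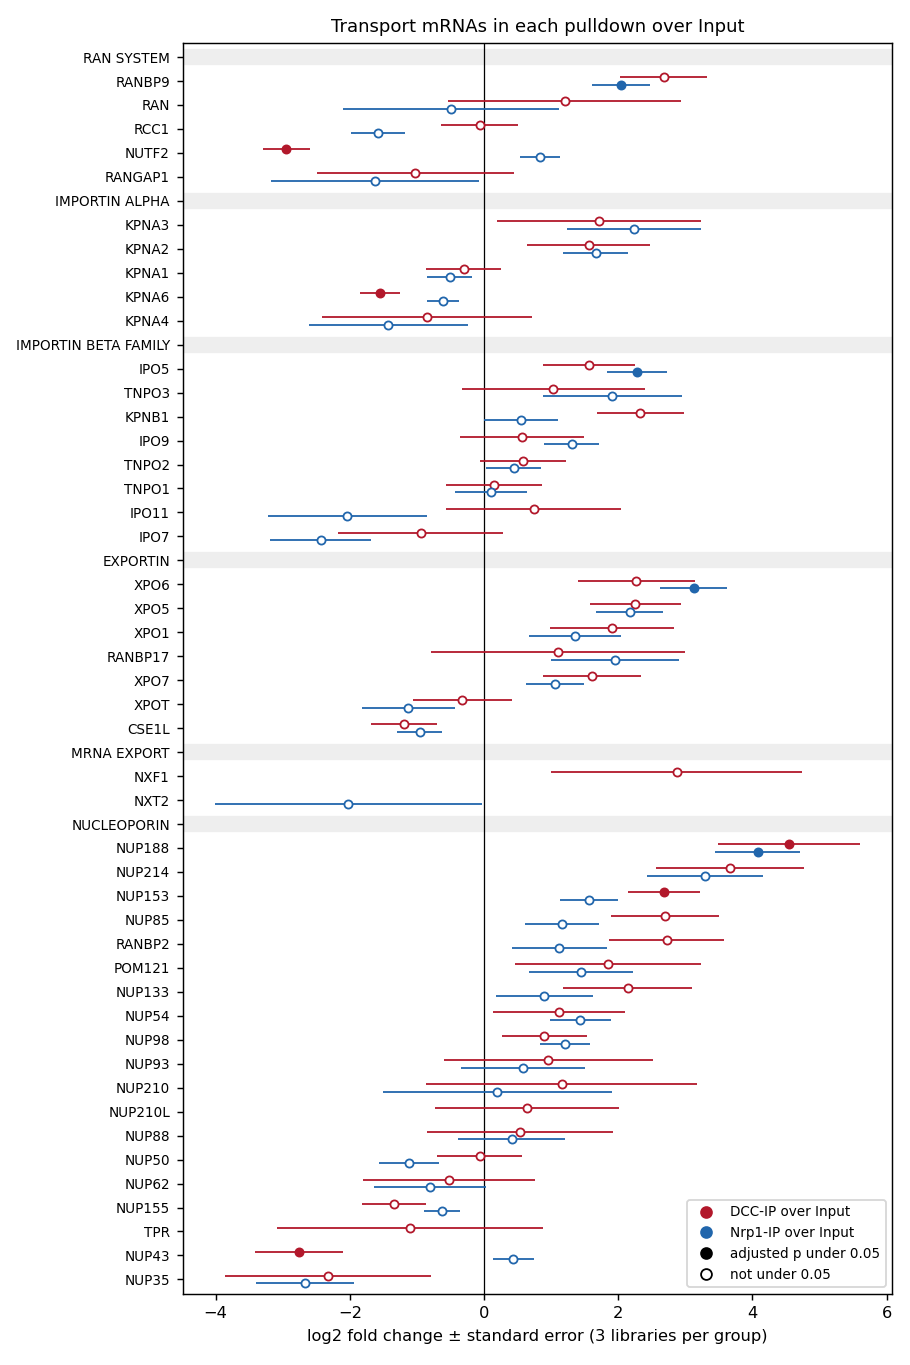
Log2 fold changes over Input (x axis, points with standard errors, 3 libraries per group) in DCC-IP and Nrp1-IP for each transport gene tested, grouped by role and filled where the edgeR adjusted p was under 0.05. NUP188 is filled for both pulldowns (4.55 and 4.08), and NUTF2 and NUP43 lie on opposite sides of 0 in the 2 pulldowns. Both series share the Input libraries.

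For some transport mRNAs the same replicate number was highest or lowest in all 3 groups. Replicate 3 was the highest library in all 3 groups for 6 of the 47 tested transport genes (KPNA4, NUP50, RAN, RANGAP1, TNPO1 and XPOT), 12.8% of them and close to the 12.4% of the 7334 genes tested in any comparison. Replicate 2 was highest in all 3 groups for 5 (IPO7, POM121, RANBP2, TNPO3 and XPO5), 10.6% beside 4.69%, and lowest in all 3 for 5 (IPO11, NUP50, NUP85, RCC1 and XPOT), 10.6% beside 3.70%. Replicate 1 was highest in all 3 groups for 0 (5.69% of all genes) and lowest for 5 (NUP210, NUP62, NUP93, POM121 and TPR), 10.6% beside 12.3%, and replicate 3 was lowest for CSE1L and TNPO2, 4.26% beside 7.61%. These counts were not tested. RAN showed the widest such gap named here, with replicate 3 at 311 to 1058 counts and the other replicates at 7 to 37.

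**Figure D5:**
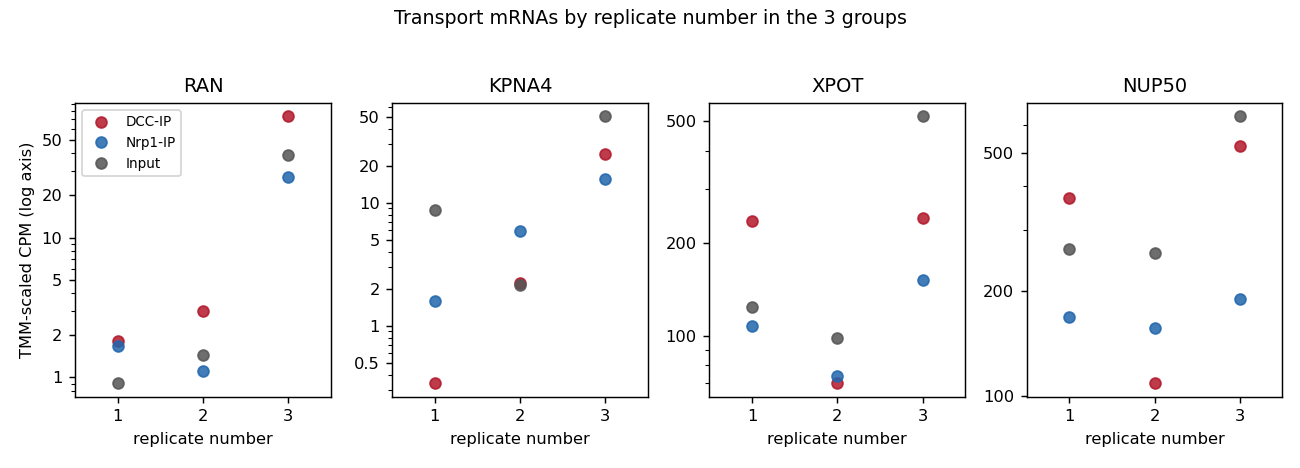
TMM-scaled CPM (log axis) of RAN, KPNA4, XPOT and NUP50 by replicate number (x axis), with a point for each of the 3 groups. In all 4 genes the replicate 3 point is the highest of its group, and for RAN the 3 points at replicate 3 correspond to 1058, 359 and 311 counts.

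A further list of 38 transport genes outside the symbol pattern, of other pore components, mRNA export factors and adaptors, had 24 genes tested between the receptors, 21 in DCC-IP over Input and 22 in Nrp1-IP over Input. The called gene among them, in both comparisons with Input, was AHCTF1 (ELYS), the nucleoporin that recruits the Y-complex to chromatin. This made up 4.76% of the list's tested genes in DCC-IP over Input and 4.55% in Nrp1-IP over Input. Of all genes tested, 4.98% and 4.97% were called, so the list was near the share of all genes. AHCTF1 had 4, 2 and 2 counts in Input, 108, 57 and 84 with Nrp1 and 405, 190 and 34 with DCC. Every pulldown library was above every Input library, with log2 fold changes of 5.89 in DCC-IP (SE 1.31, edgeR adjusted p = 0.0399) and 4.45 in Nrp1-IP (SE 0.79, edgeR adjusted p = 0.0253). The DCC-IP call was lost with MAP1B left out (edgeR adjusted p = 0.0576) and without any 1 library other than DCC-IP replicate 3 (0.0975 to 0.180). The Nrp1-IP call was lost with all 9 libraries in 1 fit (edgeR adjusted p = 0.0859) and without any 1 library other than Input replicate 3 (0.0562 to 0.159). Both rest on Input counts too low to fix the size of the fold. Between the receptors none of the 24 was called by edgeR. At an unadjusted edgeR p under 0.05 there was 1, where 7.87% of all genes were higher and 9.49% lower. DESeq2 called 1, PCID2, lower in Nrp1-IP, where it called 6.14% of all genes with an adjusted p lower. Over Input, other settings called PCID2, SRSF3 or NDC1 higher and SEH1L, PHAX, THOC5 or ALYREF lower. The median log2 fold change of this list over Input was 0.52 in DCC-IP and 0.06 in Nrp1-IP, beside 0.16 and 0.06 over all genes tested.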

How the data were processed

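Immunopurified and Input RNA was reverse transcribed and amplified with a PCR-based single-cell protocol with no molecular identifiers described, so amplification adds error that counts do not show. The authors aligned reads with HISAT2 2.1.0 to hg19 and counted reads per gene with HTSeq 0.11.0 (tools and build from the submitters' processing notes). Which annotation and strand option HTSeq used is not given in the sources used here, so reads of overlapping antisense genes cannot be told apart. The deposited values are raw counts. The 5 HTSeq summary lines were left out of library sizes and tests. Reads without a gene were 48.7% to 55.8% of each table's total and reads with several alignments 2.83% to 3.83%.

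Each comparison was fitted on its 6 libraries with edgeR 4.0.16 in R 4.3.3 (filterByExpr with a minimum count of 10, TMM scaling, glmQLFit and glmQLFTest), with p-values adjusted over all genes tested. Levels are TMM-scaled CPM over the 9 libraries. Alternatives were DESeq2 1.42.0, other scalings, other filters, edgeR's exact test, all 9 libraries in 1 fit, MAP1B left out, the replicate number as a block and each library left out. Scripts were tested on simulated data. Deviations of same-numbered libraries from their group means correlated at 0.117, 0.187 and 0.421 for DCC-IP and Input over 7628 genes, all above 0.1, so the numbers were taken to pair these groups, from the data and not from the labels. Between different numbers of DCC-IP and Input the correlations ran from -0.310 to 0.136, so the pairing is uncertain. Named genes were those called, the 3 with most reads in each role, the 3 largest changes in each direction and comparison, and a set fixed by role, and other genes were named after their values were seen. Members and lists were chosen with earlier results of these data known. Pseudogene counts come from RefSeq's GRCh38.p14 list, whose coordinates were not used.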

Additional observations from a re-analysis of the deposited data

Results flagged for a closer look

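For 2 transport genes the change over Input differed between the receptors by a test of the difference itself, the fit of Nrp1-IP over DCC-IP. Each of the 3 comparisons was fitted and scaled on its own 6 libraries, so the difference is close to, and not exactly, that between the changes over Input. For NUTF2 the difference was 3.67 on the log2 scale (edgeR adjusted p = 0.000925), beside changes over Input of -2.95 in DCC-IP and 0.83 in Nrp1-IP. For NUP43 it was 3.18 (edgeR adjusted p = 0.0150), beside -2.75 and 0.44. In both genes the 3 DCC-IP libraries were below the other 6. Groups of 3 libraries are too small for the check for single outlying samples.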

How the results depend on the processing

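Calls of the transport genes depended strongly on single libraries in the comparisons with Input, and less between the receptors. Leaving out 1 library gave 1 to 3 transport genes higher and 0 lower in Nrp1-IP over DCC-IP (74 to 346 genes in all), 0 to 1 higher and 0 to 2 lower in DCC-IP over Input (0 to 250 in all, 0 without DCC-IP replicate 1 and 1 without replicate 2), and 0 to 5 higher and 0 to 4 lower in Nrp1-IP over Input (0 to 441 in all, 0 without Nrp1-IP replicate 1 and 7 without replicate 2 or 3). An arm of 2 libraries was assumed to vary like the full one.

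In Nrp1-IP over DCC-IP, 3 transport genes were higher with at least 10 counts in every library, DESeq2 called 2 lower and the replicate block 1 lower, and all genes called were 235, against 459 with 10 counts in every library, 696 with DESeq2, 437 with the exact test, 484 with no filter and 369 with the block. In DCC-IP over Input, where 2 transport genes were higher, 7 were higher with 10 counts in every library, 9 with DESeq2, 7 with all 9 libraries in 1 fit, 4 with the exact test, 3 with library size only, 6 with the block and 0 with MAP1B left out or RLE size factors. Of the 3 lower, 1 was lower with MAP1B left out, 1 with library size only and 2 with no filter. All genes called there were 310, against 805 with 10 counts in every library, 1032 with DESeq2, 73 with MAP1B left out, 213 with RLE, 780 in 1 fit, 556 with the exact test, 449 with no filter and 715 with the block. In Nrp1-IP over Input, where 4 were higher and 0 lower, 6 were higher and 2 lower with 10 counts in every library, 9 and 5 with DESeq2, 4 and 1 with RLE, 1 and 0 in 1 fit, 6 and 3 with the exact test, 9 and 0 with library size only, 6 and 3 with no filter and 5 and 0 with the block. All genes called there were 323, against 632 with 10 counts in every library, 962 with DESeq2, 125 in 1 fit, 660 with the exact test, 518 with library size only, 882 with no filter and 556 with the block. With all libraries kept, other settings also called KPNB1, NUP85, NUP214, RANBP2, RANBP9, XPO5 or XPO6 higher in DCC-IP over Input. In Nrp1-IP over Input they called KPNA2, NUP98, NUP153, NUP214, NUTF2 or XPO5 higher. Called lower there were CSE1L, IPO7, NUP155, NUP35, NUP50, RCC1 or XPOT. For most of these settings the share of all genes called in each direction is not given here. The counts of transport genes are therefore not read as a result about these genes. Where the counts moved, the cause was not tested.

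Scaling moved the median of all genes in Nrp1-IP over DCC-IP from -0.27 to -0.11 with RLE, -0.10 with library size only and -0.02 with MAP1B left out, and the calls from 165 higher and 70 lower to 191 and 45, 209 and 45, and 232 and 41. In DCC-IP over Input it moved from 0.16 to 0.00 with RLE, 0.48 with library size only and 0.33 with MAP1B left out, and the calls from 91 and 219 to 44 and 169, 141 and 167, and 26 and 47. In Nrp1-IP over Input it moved from 0.06 to -0.13 with RLE and 0.44 with library size only, and the calls from 126 and 197 to 85 and 265, and 351 and 167. The exportin and importin beta medians between the receptors changed sign with MAP1B left out (0.03 and 0.05). No named gene reversed direction past the threshold.

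The same-number correlations were 0.0989, 0.113 and 0.361 for Nrp1-IP and DCC-IP, and 0.215, -0.00430 and 0.364 for Nrp1-IP and Input. The lowest value of each lay under 0.1, narrowly so at 0.0989, and the number was therefore not taken to pair these groups. At replicate 3 the correlation was 0.361 and 0.364 here and 0.421 for DCC-IP and Input. The deviations of replicate 3 thus resembled each other in part in all 3 groups, and the reason was not tested.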
